A study of Mus musculus with 16 samples.

Results

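The 8 genes described here, Clec4d, Clec4e, Clec4n, Clec7a, Clec4f, Clec5a, Clec12a and Clec4a2, encode C-type lectin receptors of myeloid cells. They were chosen by gene name, with earlier results of these data known, and each had 1 probe among the 55681 probes of the array. Of these 8 genes 6 passed the filter, which asked for a signal well above background on both arrays of 1 group or more, and entered the test over 24579 genes. Clec12a and Clec4a2 did not, and Clec4f and Clec5a entered through 1 group each. Transcripts were measured on 16 Agilent 1-colour arrays, each hybridised with RNA of VE-cadherin+ cells sorted from mouse conceptuses of mixed strain (B6/CBA and others) at E11.5, in midgestation, with no treatment after the sort.

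The cells came from Tie-2-Etv2 or control animals, from the embryo proper or the yolk sac, and were split by CD45, the pan-leukocyte surface protein, into CD45- (gate P3) and CD45+ (gate P4) cells. The 8 groups, with 2 arrays each, were thus Tie-2-Etv2 and control embryo CD45- cells, Tie-2-Etv2 and control embryo CD45+ cells, Tie-2-Etv2 and control yolk sac CD45- cells, and Tie-2-Etv2 and control yolk sac CD45+ cells. Etv2 is an ETS-family transcription factor that acts early in blood and endothelial development. In Tie-2-Etv2 animals an Etv2 transgene was switched on by a Cre transgene under Tie-2, the endothelial receptor gene Tek, which is active in endothelium and in part of the blood lineage. The titles of the transgenic embryo CD45- samples name Tie-2 alone, while their genotype labels read Tie-2-Etv2. The labels do not say which of the transgenes the control animals carried.

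C-type lectin receptors are surface proteins of macrophages, monocytes, neutrophils and dendritic cells that bind sugars, glycolipids or remains of dead cells. The activating ones recruit the kinase Syk, through an adaptor with an activation motif (the Fc receptor gamma chain, Fcer1g, or DAP12, Tyrobp) or through a motif in their own tail, and signal on through Card9, Bcl10 and Malt1 to cytokine genes. The inhibitory ones carry a tail motif that recruits phosphatases such as Ptpn6. At this stage of mouse development the yolk sac and the embryo hold macrophages and early myeloid progenitors of yolk sac origin, and some emerging blood cells carry VE-cadherin.

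A level is the log2 processed intensity of a probe relative to the 75th percentile of its array, so that 0 is the signal at that percentile, and levels of different probes cannot be compared with each other. On the 16 arrays the share of spots well above background was 51.8% to 61.0%, with 0 spots saturated, and replicate arrays correlated at 0.975 to 0.992 over genes, which are not independent replicates. Both probes of Etv2 were higher on every Tie-2-Etv2 array than on the control arrays of the same tissue and gate. Ptprc, which encodes CD45, lay between 2.06 and 3.56 on the 8 CD45+ arrays, was not well above background on the 4 embryo CD45- arrays or the 2 control yolk sac CD45- arrays, and was detected at -2.92 and -3.43 on the Tie-2-Etv2 yolk sac CD45- arrays. Cdh5, which encodes VE-cadherin, lay between 4.72 and 5.99 on CD45- arrays and between -0.66 and 3.13 on CD45+ arrays. All embryo arrays were on 1 slide and all yolk sac arrays on another, and within a slide the 2 gates took different rows, so tissue and slide, and gate and row, cannot be told apart. In every row the Tie-2-Etv2 arrays took positions 3 and 4 and the control arrays positions 1 and 2, so genotype and position cannot be told apart either. Whether both samples of one group derive from different embryos or litters is not stated in the labels, and the p-values therefore reflect sample-to-sample spread that may be technical. Less RNA per cell and fewer cells of a type cannot be told apart in sorted bulk RNA.

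All 8 probes lie on mouse chromosome 6 (build mm9, as in the scanner files). Probes for Clec4a2, Clec4n, Clec4d and Clec4e follow each other at 123093890-123093949, 123196969-123197028, 123224788-123224847 and 123232878-123232937, with the Clec4d and Clec4e probes 8.09 kb apart. Those of Clec12a and Clec7a lie at 129314880-129314939 and 129411739-129411798, 96.9 kb apart, and those of Clec5a and Clec4f lie alone, at 40525116-40525175 and 83595281-83595339. In the RefSeq gene order of assembly GRCm38.p6, Clec4b2 stands between Clec4a2 and Clec4n, and Clec12b, Clec1b, Clec9a and Clec1a stand between Clec12a and Clec7a. The promoter windows of the neighbours Clec4d and Clec4e, the genes that differed most between genotypes, and of Clec7a are shown here (RefSeq, GRCm38.p6, 250 bases before to 50 after the start, 5' to 3' along the gene). Capitals mark the PU box, GAGGAA or its reverse complement TTCCTC, a motif bound by the myeloid ETS factor PU.1. The windows are chr6:123261857-123262156 (+ strand), chr6:123289822-123290121 (- strand) and chr6:129472730-129473029 (- strand).
Clec4d: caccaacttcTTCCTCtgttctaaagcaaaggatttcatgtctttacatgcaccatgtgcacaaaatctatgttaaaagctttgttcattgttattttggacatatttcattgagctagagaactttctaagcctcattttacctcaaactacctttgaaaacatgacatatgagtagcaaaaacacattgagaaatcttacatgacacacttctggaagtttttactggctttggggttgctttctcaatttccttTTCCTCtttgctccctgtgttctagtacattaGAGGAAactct
Clec4e: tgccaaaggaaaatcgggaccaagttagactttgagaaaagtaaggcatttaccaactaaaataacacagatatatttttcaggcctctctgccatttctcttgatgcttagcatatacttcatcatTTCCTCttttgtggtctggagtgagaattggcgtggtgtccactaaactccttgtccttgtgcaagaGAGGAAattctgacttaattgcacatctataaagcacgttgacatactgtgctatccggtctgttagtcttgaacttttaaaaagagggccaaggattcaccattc
Clec7a: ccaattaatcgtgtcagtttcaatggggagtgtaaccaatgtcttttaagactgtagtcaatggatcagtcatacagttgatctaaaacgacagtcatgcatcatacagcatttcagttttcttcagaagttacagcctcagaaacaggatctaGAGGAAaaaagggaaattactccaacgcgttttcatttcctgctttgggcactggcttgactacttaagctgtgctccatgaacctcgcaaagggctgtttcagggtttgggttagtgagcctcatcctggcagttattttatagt
The Clec4d window held 3 PU boxes, the Clec4e window 2 and the Clec7a window 1. Among the windows not printed, those of Clec12a and Clec5a held 2 each, and those of Clec4f and Clec4a2 held 0. Clec12a did not enter the test, and Clec5a passed it in no comparison of genotypes. Whether PU boxes go with the genotype differences was not tested. Clec7a had 2 windows, of which only the first listed was used for it here. Of the 7 genes with a window in the table, 5 held at least 1 PU box, against 28.3% of all 32851 windows of this length, and 0 held the other ETS form searched, CCGGAA on either strand, against 14.9% of all windows. The 2 motifs share no match, as the bases before their common GGAA differ. A match describes these letters only.

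Clec4d encodes MCL, a receptor for mycobacterial cord factor that works together with Mincle and the Fc receptor gamma chain. In CD45- cells it was detected only with the transgene. Its levels were 1.14 and 0.25 on the Tie-2-Etv2 embryo CD45- arrays, against -5.41 and -5.53 on control arrays, where it was not well above background. In yolk sac CD45- cells they were 3.71 and 2.83 with Tie-2-Etv2, against -6.34 and -7.09 in controls, again not well above background. The groups did not overlap in either tissue. Clec4d was at least 49.8-fold higher in Tie-2-Etv2 than in control embryo CD45- cells (log2 difference 6.16 ± 0.75, SE, limma adjusted p = 0.00136) and at least 285-fold higher in yolk sac CD45- cells (9.98 ± 0.75, adjusted p = 7.31e-06). Here and below, "at least" counts a dim array at its lowest signal well above background or its own signal, whichever is higher. It holds for the processed intensities only. With normexp background correction the 2 differences were 3.14 and 5.53 (log2), smaller than these bounds.

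In CD45+ cells, which held Clec4d in both genotypes, its levels in the yolk sac were 4.74 and 4.07 with Tie-2-Etv2, against 1.57 and 2.31 in controls. Clec4d rose 5.53-fold there (2.47 ± 0.75, adjusted p = 0.0280). In embryo CD45+ cells it stood at 3.60 and 3.66 with Tie-2-Etv2, against 4.06 and 1.22 in controls. The control arrays lay on both sides of the transgenic ones, and the difference of 0.99 ± 0.75 did not pass the test (adjusted p = 0.611). The yolk sac CD45+ call was lost when 1 of 3 arrays was left out, with adjusted p = 0.138 without control replicate 1, 0.148 without Tie-2-Etv2 replicate 1 and 0.0606 without Tie-2-Etv2 replicate 2 (0.00998 to 0.148 over its 16 alternatives). Where an array is left out, here and in the values that follow, the lone array of its group is assumed to vary like the arrays of the other groups.

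Clec4e encodes Mincle, which binds the same mycobacterial glycolipid and a nuclear protein released by dying cells. It was higher with Tie-2-Etv2 on every array of the 4 populations. Its levels in embryo CD45- cells were 0.85 and 1.07 with Tie-2-Etv2, against -5.01 and -3.98 in controls, where 1 of 2 arrays detected it. In yolk sac CD45- cells they were 4.61 and 4.31 with Tie-2-Etv2, against -2.12 and -1.95 in controls. The rise was 90.1-fold in the yolk sac (6.49 ± 0.90, adjusted p = 0.00031). In the embryo it was at least 37.7-fold, with the dim control array raised to its lowest signal well above background (5.46 ± 0.90 as measured, adjusted p = 0.0116).

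The yolk sac CD45+ levels of Clec4e were 5.63 and 5.42 with Tie-2-Etv2, against 0.12 and 1.16 in controls, a rise of 29.6-fold (4.89 ± 0.90, adjusted p = 0.00209). For embryo CD45+ cells they were 4.40 and 4.66 with Tie-2-Etv2, against 3.51 and -0.22 in controls, and the difference of 2.89 ± 0.90 did not pass (adjusted p = 0.125). Here the 2 control arrays were 3.73 apart. Without control replicate 1 the difference was 4.75 with an adjusted p of 0.00121 (0.00121 to 0.543 over its 16 alternatives), a value that leaves out this gap and takes the spread from other groups. The call in embryo CD45- cells was lost with normexp background correction (3.29, adjusted p = 0.0676), with the embryo slide fitted alone (adjusted p = 0.149) and without control replicate 1 (0.130), Tie-2-Etv2 replicate 1 (0.0675) or Tie-2-Etv2 replicate 2 (0.0989), over a range of 0.00448 to 0.149.

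The control embryo CD45+ arrays differed in the same way for 3 of the 8 genes. Replicate 1 was higher than replicate 2 by 2.85 for Clec4d, 3.73 for Clec4e and 2.58 for Clec4f, while Clec4n differed by 0.28 and Clec7a by -0.02. Over all genes, 3.67% differed by more than 2 between these arrays. A list of 15 tested genes that C-type lectin receptor signalling is known to induce, cytokine and chemokine genes among them, had a summed signal (in multiples of the 75th percentile) of 2165 on replicate 1 and 1009 on replicate 2. Of these 15 genes 9 were higher by more than 1 on replicate 1 and 1 on replicate 2. Other lists differed too. Of 9 erythroid markers 0 were higher by more than 1 on replicate 1 and 5 on replicate 2, with a median gap of -1.08. The counts were 2 and 5 for 15 granulocyte markers, and 3 and 0 for 21 macrophage and monocyte markers. The part of any list in the differences was not tested.

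**Figure D1:**
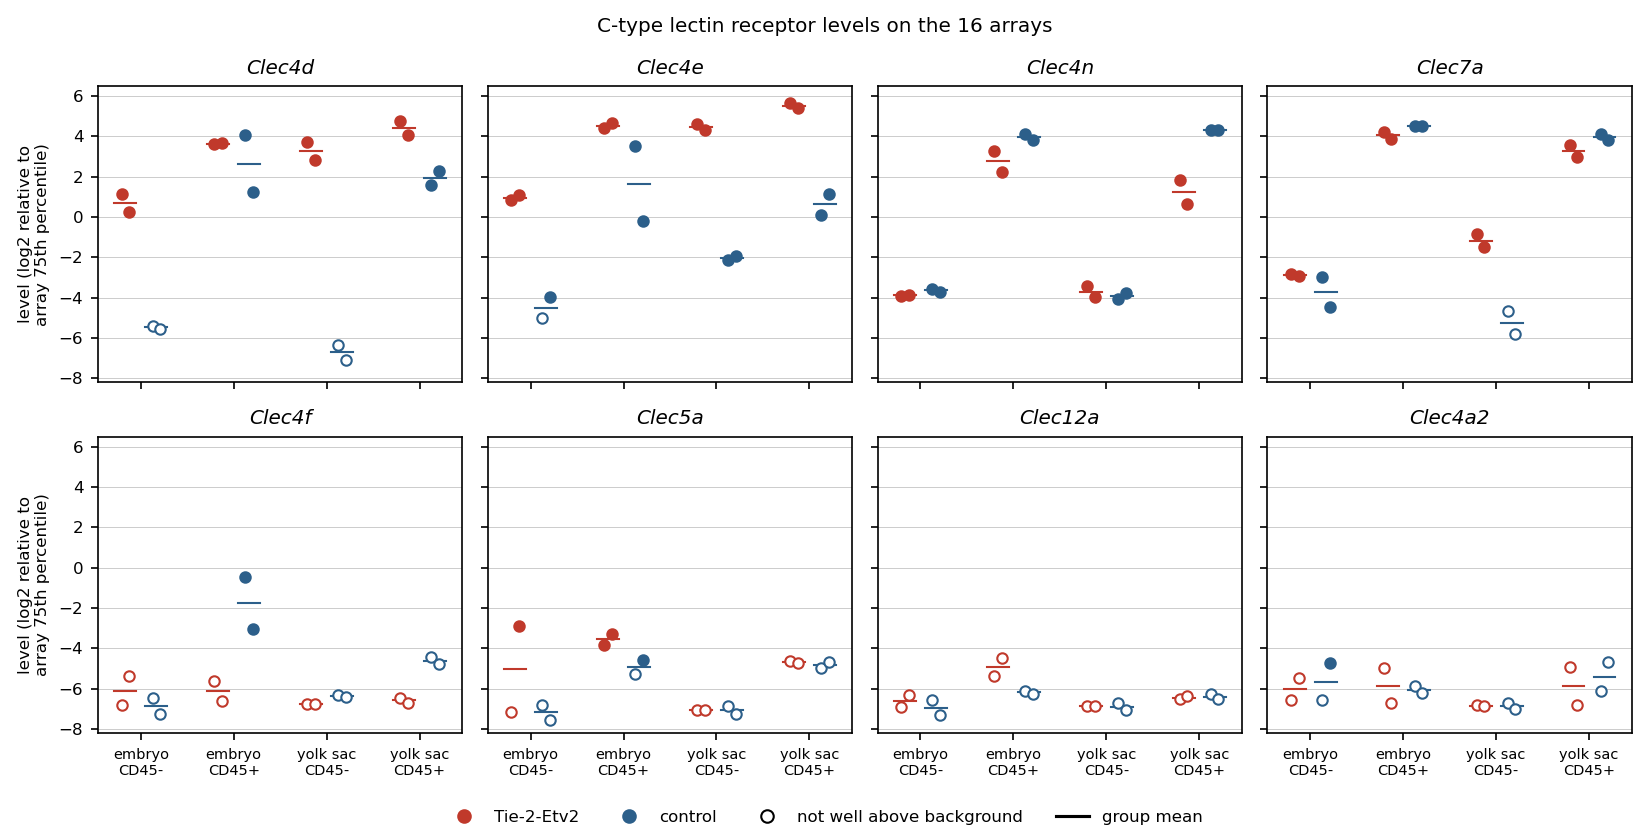
Levels of the 8 receptors (log2 relative to the 75th percentile of the array) on all 16 arrays, with 1 point per array, a line at each group mean of 2 arrays, and open points where the probe was not well above background. Clec4d and Clec4e lie higher in Tie-2-Etv2 than in control CD45- cells of both tissues, Clec4n lies between -4.07 and -3.44 on all CD45- arrays, and all Clec12a points are open.

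Clec4n encodes Dectin-2, a receptor for fungal mannans that also signals through the Fc receptor gamma chain. Unlike its neighbours it was detected on all 16 arrays, and in CD45- cells it stayed low. Its levels in embryo CD45- cells were -3.90 and -3.85 with Tie-2-Etv2, against -3.55 and -3.73 in controls. In yolk sac CD45- cells they were -3.44 and -3.98 with Tie-2-Etv2, against -4.07 and -3.77 in controls. The differences of -0.23 ± 0.41 and 0.21 ± 0.41 did not pass the test (adjusted p = 1.00 and 0.716).

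In CD45+ cells Clec4n went the other way from Clec4d and Clec4e. Its yolk sac CD45+ levels were 1.86 and 0.63 with Tie-2-Etv2, against 4.31 and 4.33 in controls, and it fell 8.42-fold (-3.07 ± 0.41, adjusted p = 0.000299). In embryo CD45+ cells they were 3.30 and 2.23 with Tie-2-Etv2, against 4.13 and 3.84 in controls. Both transgenic arrays lay below both control arrays, but the difference of -1.22 ± 0.41 did not pass (adjusted p = 0.153).

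Clec7a encodes Dectin-1, the receptor for fungal beta-glucan, which carries its activation motif in its own tail. With Tie-2-Etv2 its levels in yolk sac CD45- cells were -0.86 and -1.47, against -4.67 and -5.80 in controls, where it was not well above background. It was at least 13-fold higher (4.06 ± 0.48, adjusted p = 0.000115). In embryo CD45- cells its levels were -2.85 and -2.92 with Tie-2-Etv2, against -3.00 and -4.46 in controls, and the difference of 0.84 ± 0.48 did not pass (adjusted p = 0.867).

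In CD45+ cells Clec7a was high in both genotypes. Its embryo CD45+ levels were 4.23 and 3.86 with Tie-2-Etv2, against 4.51 and 4.53 in controls. Its yolk sac CD45+ levels were 3.60 and 2.96 with Tie-2-Etv2, against 4.11 and 3.85 in controls. The transgenic arrays were lower in both tissues, but by -0.47 ± 0.48 and -0.70 ± 0.48, which did not pass (adjusted p = 0.748 and 0.301).

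Clec4f encodes a receptor that in the mouse marks Kupffer cells, the macrophages of the liver. It was detected in 1 group, on the control embryo CD45+ arrays. Its levels in embryo CD45+ cells were -5.64 and -6.62 with Tie-2-Etv2, not well above background, against -0.47 and -3.04 in controls. It was at least 7.50-fold lower in Tie-2-Etv2 cells (-4.37 ± 0.73, adjusted p = 0.00984). That call was lost with normexp background correction (-1.19, adjusted p = 0.102), with the 4 arrays alone (0.242), with the embryo slide alone (0.0901) and without Tie-2-Etv2 replicate 2 (0.0984), over a range of 0.00136 to 0.242, and Clec4f entered the test only because of the group in which it was high. In yolk sac CD45+ cells it lay at -6.44 and -6.72 with Tie-2-Etv2, against -4.45 and -4.77 in controls, not well above background in either genotype.

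Clec5a encodes MDL-1, a receptor paired with DAP12. It was detected on both Tie-2-Etv2 embryo CD45+ arrays, at -3.82 and -3.28, against -5.26 and -4.56 in controls, where 1 of 2 arrays detected it. The difference of 1.36 ± 0.99 did not pass (adjusted p = 0.591). On the Tie-2-Etv2 embryo CD45- arrays it stood at -7.15 and -2.88, against -6.80 and -7.56 in controls, so that 1 array of 4 detected it. The difference there was 2.16 ± 0.99 and did not pass (adjusted p = 0.727). Without Tie-2-Etv2 replicate 1 it was 4.30 with an adjusted p of 0.000618 (0.000618 to 1.00 over its 15 alternatives), but that value sets 1 array against controls below background, leaves out the gap between the transgenic arrays and takes the spread from other groups. Clec5a entered the test through Tie-2-Etv2 embryo CD45+ cells alone.

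Clec12a and Clec4a2 encode the inhibitory receptors MICL and DCIR, whose tails recruit phosphatases. Clec12a was not well above background on any of the 16 arrays, with measured values between -7.33 and -4.50. Clec4a2 was well above background on 1 of 16 arrays, control embryo CD45- replicate 2, at -4.74, and lay between -6.99 and -4.67 on all 16. Neither was tested, and no group level is given for either.

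**Figure D2:**
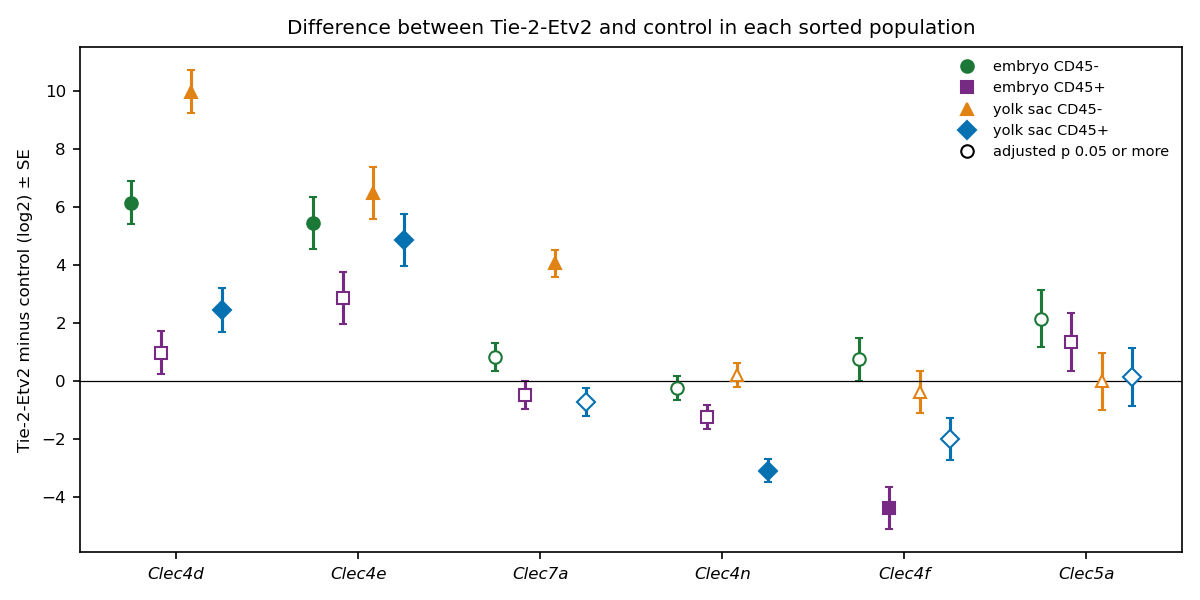
Tie-2-Etv2 minus control difference (log2) with its SE for the 6 tested receptors in the 4 sorted populations, filled where the adjusted p was under 0.05. The Clec4e differences are all above 0, between 2.89 and 6.49, while Clec4n lies near 0 in CD45- cells and at -3.07 in yolk sac CD45+ cells.

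Counted over the 6 tested genes, 2 rose and 0 fell in Tie-2-Etv2 embryo CD45- cells, where 1.25% of all 24579 genes rose and 0.0325% fell. Among the embryo CD45+ results 0 rose and 1 fell, where 2.31% of all genes rose and 0.732% fell, and the 1 was Clec4f, which entered the test through the control group. In yolk sac CD45- cells 3 rose and 0 fell, with 26.1% of all genes higher and 15.8% lower. In yolk sac CD45+ cells 2 rose and 1 fell, with 18.1% of all genes higher and 14.4% lower. The median difference of the 6 genes was 1.50, 0.26, 2.14 and -0.27 in these 4 populations, beside -0.03, -0.03, 0.18 and 0.04 over all genes. Calls were frequent over all genes in the yolk sac, so the counts there are no result about the receptors as a group. The alternative percentile, taken over probes detected on all arrays, moved the split over all genes in yolk sac CD45- cells to 4065 higher and 5620 lower, against 6406 higher and 3883 lower here, and the median of all genes to -0.14.

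The effect of the transgene differed between tissues and gates for some of these genes. In CD45- cells the yolk sac effect exceeded the embryo effect by 3.82 ± 1.06 for Clec4d (adjusted p = 0.0362) and by 3.22 ± 0.68 for Clec7a (0.0127), where 15.9% of all genes differed in either direction. In CD45+ cells 0 of 6 genes differed between tissues by limma (2 at an unadjusted p under 0.05), against 3.13% of all genes. Without control embryo CD45+ replicate 2, 1 of the discordant pair, this contrast passed for Clec4e (3.86, adjusted p = 0.0143; 0.0143 to 0.949 over its alternatives) and Clec4f (3.69, adjusted p = 0.0329; 0.0329 to 0.529). Those values leave out the gap between the 2 control arrays and take the spread from other groups, and Clec4f entered the test only through this control group. The CD45+ effect minus the CD45- effect in the yolk sac was -7.51 ± 1.06 for Clec4d (adjusted p = 0.000879), -4.76 ± 0.68 for Clec7a (0.000912) and -3.29 ± 0.58 for Clec4n (0.00306), where 18.4% of all genes differed. In the embryo, where 1.14% of all genes differed, it was -5.17 ± 1.06 for Clec4d (0.0511, not called). For Clec4f it was -5.13 ± 1.03 (0.0458), but Clec4f entered the test only through control embryo CD45+ cells and was not well above background in the other 3 groups, so neither this size nor its p is independent of the filter. The size of these differences rests in part on control CD45- signals below background for Clec4d, Clec4f and, in the yolk sac, Clec7a.

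Normexp background correction, which lifts the lowest signals, made the CD45- differences smaller. The Clec4d difference was 3.14 in embryo CD45- and 5.53 in yolk sac CD45- cells with it, the Clec4e difference 3.29 and 5.71, and the Clec7a difference in yolk sac CD45- cells 1.41. The yolk sac minus embryo difference of effects was then 2.40 for Clec4d (adjusted p = 0.0813, in a range of 0.0215 to 0.131 over alternatives) and 1.04 for Clec7a (0.0692, in a range of 0.00386 to 0.0692), neither called, and the Clec4d, Clec7a and Clec4n gate differences in the yolk sac were -3.09, -2.08 and -2.89, each still called.

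In control animals Clec4d, Clec4e, Clec4n and Clec7a were higher in CD45+ than in CD45- cells of both tissues. In control embryos the CD45+ minus CD45- difference was 7.63 ± 0.41 for Clec4n (adjusted p = 2.5e-07) and 8.24 ± 0.48 for Clec7a (4.42e-07). Clec4d was at least 192-fold higher in CD45+ cells, Clec4f at least 9.11-fold higher, and Clec4e at least 60.5-fold higher with its dim CD45- array raised to the lowest signal well above background (6.14 ± 0.90 as measured, adjusted p = 0.000328). In control yolk sacs Clec4n was 302-fold higher in CD45+ cells, Clec7a at least 461-fold, Clec4d at least 113-fold and Clec4e 6.40-fold (2.68 ± 0.90, adjusted p = 0.0374). Thus 5 of 6 tested genes in control embryos and 4 of 6 in control yolk sacs were higher in CD45+ cells, where 19.9% and 22.6% of all genes were. Clec4f, 1 of the 5, entered the test only through control embryo CD45+ cells. The yolk sac call on Clec4e was lost without each of its 4 arrays in turn and under 2 other alternatives (adjusted p 0.00173 to 0.171 over its 15 alternatives).

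In Tie-2-Etv2 yolk sacs the gates lay closer together than in control yolk sacs for Clec4d, Clec7a and Clec4n, by the differences of effects given above. For Clec4e that contrast was -1.61 ± 1.27 and did not pass (adjusted p = 0.468), nor did it in the embryo (-2.57 ± 1.27, adjusted p = 0.662). In Tie-2-Etv2 yolk sacs the CD45+ minus CD45- difference was 1.14 ± 0.75 for Clec4d (adjusted p = 0.503) and 1.07 ± 0.90 for Clec4e (0.647), neither called, beside 4.95 ± 0.41 for Clec4n (3.96e-05) and 4.45 ± 0.48 for Clec7a (0.000186), both called. In Tie-2-Etv2 embryos it was 2.94 ± 0.75 for Clec4d (0.0130), 3.57 ± 0.90 for Clec4e (0.0122), 6.64 ± 0.41 for Clec4n (1.18e-06) and 6.93 ± 0.48 for Clec7a (2.63e-06). This made 2 of 6 genes in Tie-2-Etv2 yolk sacs and 4 of 6 in Tie-2-Etv2 embryos higher in CD45+ cells, against 4.46% and 16.4% of all genes. In Tie-2-Etv2 embryos the Clec4d call was lost without CD45+ replicate 1 (adjusted p = 0.0567), CD45+ replicate 2 (0.0608) or CD45- replicate 2 (0.094), over a range of 0.00473 to 0.094. The Clec4e call there was lost without CD45+ replicate 2 (0.063), CD45- replicate 1 (0.0628) or CD45- replicate 2 (0.0504) and with the slide alone (0.0592), over a range of 0.0013 to 0.063.

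Ranked over the 8 groups, Clec4d and Clec4e stood highest in Tie-2-Etv2 yolk sac CD45+ cells, with means of 4.41 ± 0.48 and 5.53 ± 0.15 (SD, n = 2), and their next groups, Tie-2-Etv2 embryo CD45+ and Tie-2-Etv2 yolk sac CD45- cells, overlapped each other. Clec4n stood highest in control yolk sac CD45+ cells, at 4.32 ± 0.02 (SD, n = 2), followed by control embryo, Tie-2-Etv2 embryo and Tie-2-Etv2 yolk sac CD45+ cells with no overlap between neighbours. Its 4 CD45- groups overlapped in the order of their means. Clec7a stood highest in control embryo CD45+ cells, at 4.52 ± 0.01 (SD, n = 2), and Tie-2-Etv2 embryo and control yolk sac CD45+ cells overlapped below it. Below the CD45+ groups, Clec7a in Tie-2-Etv2 yolk sac CD45- cells, at -1.17, lay above the other CD45- groups with no overlap.

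Over the 16 arrays, which share 8 groups of 2, the levels of Clec4d and Clec4e correlated at r = 0.905 and those of Clec4n and Clec7a at 0.944, against 0.394 for Clec4e and Clec4n. The genes most like Clec4d were Ccdc88b, Lilrb4a and Lilr4b, at r = 0.986, 0.983 and 0.982. Those most like Clec4n were Ms4a7, Clec10a and Wfdc17, each at 0.996, and those most like Clec7a were Nkg7, Igsf6 and Emilin2, each at 0.988. The nearest genes to Clec4e were Tnfsf14, Mbp and Gtsf1, at 0.967, 0.967 and 0.962. Clec4f and Clec5a, detected on 2 and 4 arrays, came nearest to Gbp5 at 0.909 and Mag at 0.855.

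Some signalling partners of these receptors rose in CD45- cells as well. Of 21 listed signalling genes, all tested, 7 rose and 0 fell in Tie-2-Etv2 embryo CD45- cells, with a median difference of 0.38, where 1.25% of all genes rose. In yolk sac CD45- cells 14 rose and 0 fell, with a median of 1.83, where 26.1% of all genes rose. Fcer1g, the gamma chain that Clec4d, Clec4e and Clec4n use, rose by 2.41 ± 0.20 in embryo CD45- cells (adjusted p = 9.21e-05) and by 3.73 ± 0.20 in yolk sac CD45- cells. Tyrobp, the DAP12 partner of Clec5a, rose by 3.11 ± 0.44 in the embryo (adjusted p = 0.00397) and by 7.31 ± 0.44 in the yolk sac (1.63e-06). Only 1 control yolk sac CD45- array detected Tyrobp, so the yolk sac size rests in part on a dim signal. Vav1, an exchange factor downstream of Syk, rose by 4.97 ± 0.23 in embryo and by 7.72 ± 0.23 in yolk sac CD45- cells. Syk and Card9, named after their values were seen, rose by 2.69 ± 0.24 and 1.83 ± 0.48 in yolk sac CD45- cells. The Card9 value is as measured, from a probe well above background there on 1 Tie-2-Etv2 and 0 control arrays, so it rests on signals near background.

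In CD45+ cells the partners moved less. In embryo CD45+ cells limma called 0 of the 21 signalling genes (2 at an unadjusted p under 0.05), and in yolk sac CD45+ cells 4 rose and 4 fell, where 18.1% of all genes rose and 14.4% fell. Fcer1g and Tyrobp were among those that fell there, with differences of -1.70 ± 0.20 (adjusted p = 0.00015) and -1.74 ± 0.44 (0.0117), while Plcg2 and Ptpn11, a phospholipase and a phosphatase of the pathway, rose by 1.30 ± 0.18 and 1.20 ± 0.15. Between gates, 12 of the 21 genes were higher and 1 lower in CD45+ than CD45- cells of Tie-2-Etv2 embryos, 5 higher and 1 lower in Tie-2-Etv2 yolk sacs, 14 higher and 2 lower in control embryos and 14 higher and 0 lower in control yolk sacs. Of all genes 16.4%, 4.46%, 19.9% and 22.6% were higher in these comparisons and 13.9%, 5.92%, 16.6% and 15.8% lower.

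The counts for the lists that follow stand beside the same shares of all genes, namely 1.25% higher and 0.0325% lower in embryo CD45-, 2.31% and 0.732% in embryo CD45+, 26.1% and 15.8% in yolk sac CD45- and 18.1% and 14.4% in yolk sac CD45+ cells. Of 15 tested genes that such signalling is known to induce, 1 rose in Tie-2-Etv2 embryo CD45- cells, 5 rose and 1 fell in yolk sac CD45- cells, 0 changed in embryo CD45+ cells (1 at an unadjusted p under 0.05 by limma), and 1 rose and 3 fell in yolk sac CD45+ cells. Il1b, the cytokine interleukin-1 beta, was at least 5.09-fold higher in Tie-2-Etv2 embryo CD45- and at least 90.3-fold higher in Tie-2-Etv2 yolk sac CD45- cells than in controls. Tnf rose by 5.05 ± 0.53 in yolk sac CD45- cells (adjusted p = 5.92e-05). Among yolk sac CD45+ cells the chemokine gene Ccl2 fell by 4.01 ± 0.96 (adjusted p = 0.00897) and the transcription factor gene Egr2 by 3.39 ± 0.55 (0.000943).

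Among 33 other C-type lectin-like receptor genes 24 were tested. Of these 1 rose in Tie-2-Etv2 embryo CD45- cells, 4 rose and 2 fell in embryo CD45+ cells, 8 rose and 6 fell in yolk sac CD45- cells, and 7 rose and 8 fell in yolk sac CD45+ cells. Clec1b, which encodes the platelet receptor CLEC-2 and stands between Clec12a and Clec7a, rose by 4.36 ± 0.28 in embryo CD45+ cells (adjusted p = 4.24e-05). It rose by 3.36 ± 0.28 in the CD45- (1.52e-05) and by 7.85 ± 0.28 in the CD45+ cells of the yolk sac (6.55e-07). Cd69, an activation antigen of leukocytes, was at least 8.19-fold higher in Tie-2-Etv2 embryo CD45- and at least 96.2-fold higher in Tie-2-Etv2 yolk sac CD45- cells. Clec10a and Clec4a3, a macrophage lectin and a relative of Clec4a2, fell in yolk sac CD45+ cells, with differences of -4.83 ± 0.40 and -4.85 ± 0.38 (adjusted p = 2.29e-05 and 1.87e-05). Both were below background in all CD45- groups.

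**Figure D3:**
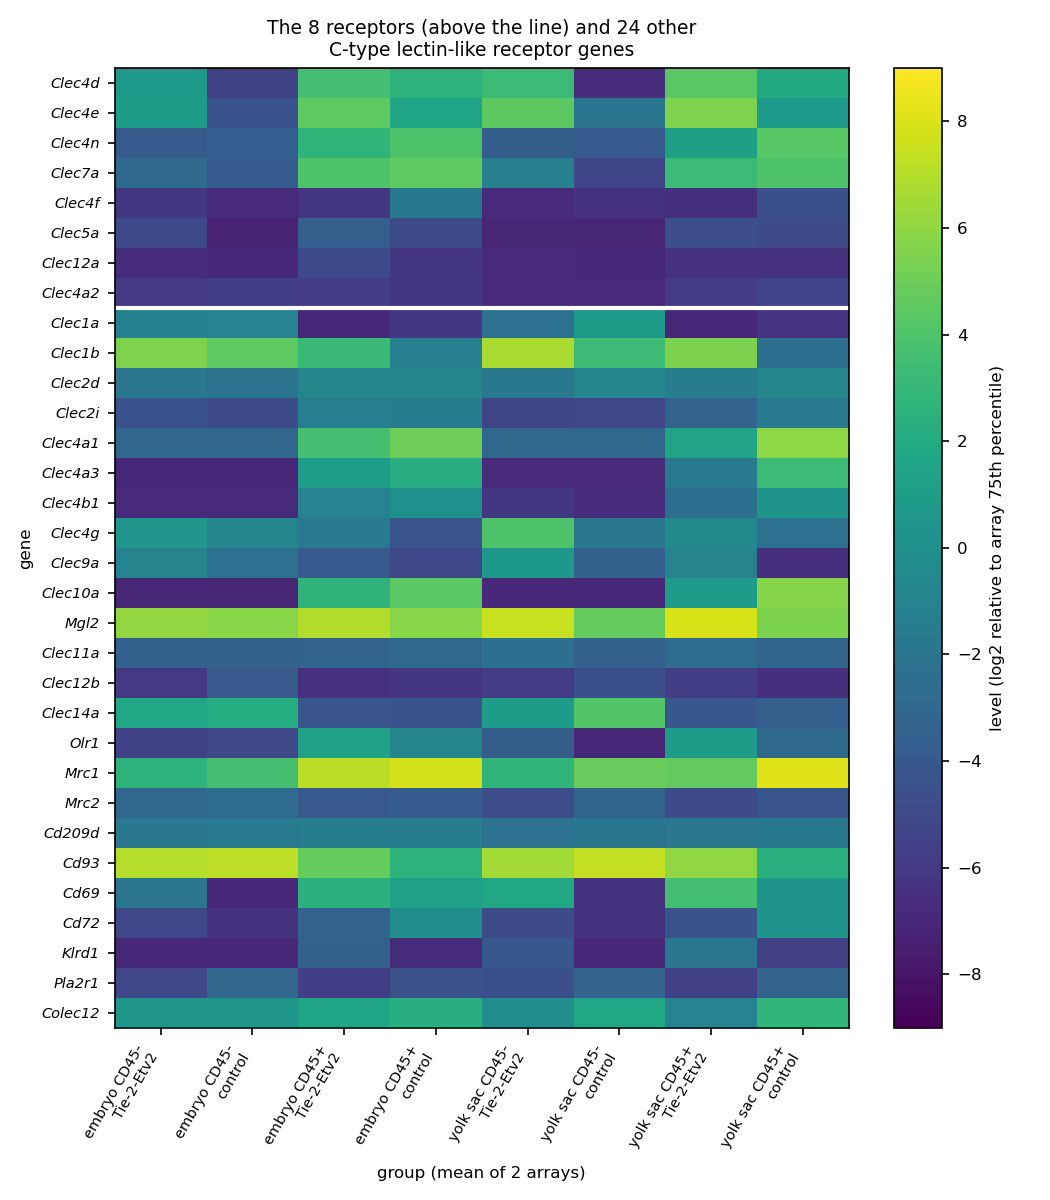
Group means (log2 relative to the 75th percentile, 2 arrays each) of the 8 receptors, above the line, and of the 24 other tested C-type lectin-like receptor genes in the 8 groups. Clec10a and Clec4a3 are highest in control yolk sac CD45+ cells, as is Clec4n, and Clec1b is highest in Tie-2-Etv2 yolk sac CD45- cells. Dim cells of the map include signals below background.

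Markers of blood cell types also differed between genotypes, and their part in the receptor differences was not tested. A summed signal, here and above, adds probes of unlike brightness, so that the brightest probes weigh most. It is no measure of the number of cells of a type. In yolk sac CD45+ cells 16 of 21 tested macrophage and monocyte markers fell and 1 rose, with summed signals of 249 and 258 on Tie-2-Etv2 arrays, against 2413 and 1757 on control arrays. Adgre1 (F4/80) and C1qc, both macrophage genes, fell, with differences of -4.55 ± 0.26 (adjusted p = 6.14e-06) and -4.25 ± 0.36 (2.8e-05). In the same cells 11 of 15 granulocyte markers rose and 0 fell, with summed signals of 1490 and 1207 against 98.0 and 231. S100a8 and S100a9, neutrophil calcium-binding proteins, rose by 6.10 ± 1.62 (adjusted p = 0.0150) and 5.64 ± 1.50 (0.0152). Clec4n fell in this population and Clec4d and Clec4e rose.

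In embryo CD45+ cells 5 of 15 granulocyte markers rose and 0 fell, with sums of 1543 and 1995 on Tie-2-Etv2 arrays, against 184 and 300.1 on control arrays, and 1 of 21 macrophage and monocyte markers rose and 2 fell (12 at an unadjusted p under 0.05, median -1.05). The macrophage sums there were 1362 and 964 on Tie-2-Etv2 arrays, against 2054 and 1884 on control arrays, without overlap, in the population in which Clec4n also lay lower without passing. In yolk sac CD45- cells 6 of 21 macrophage and monocyte markers rose and 2 fell, with sums of 85.2 and 64.7 against 29.5 and 22.7, and 6 of 15 granulocyte markers rose, with sums of 184 and 175 against 62.1 and 57.3. Lyz2, the lysozyme gene of macrophages and granulocytes, was at least 216-fold higher there. Of the 21 macrophage and monocyte markers 14 and 15 were detected on the Tie-2-Etv2 arrays, against 10 and 12 on the control arrays, and C1qa, Timd4, Ccr2, Ms4a7, C1qc and Vsig4 were not well above background on any of these 4 arrays. Lyz2, Cx3cr1 and Trem2 were detected on 2 Tie-2-Etv2 and 0 control arrays, and Fcgr1 on 2 and 1. These markers, and those for embryo CD45- cells below, are named by detection rather than by size. In embryo CD45- cells 3 of 21 macrophage and monocyte markers rose and 1 fell, with overlapping sums of 29.9 and 33.3 against 30.9 and 24.7, and 1 of 15 granulocyte markers rose, the myeloperoxidase gene Mpo, by 5.00 ± 0.53 (adjusted p = 0.000569). The embryo CD45- arrays detected 13 and 12 of the 21 macrophage and monocyte markers with Tie-2-Etv2, against 10 and 15 in controls. C1qa, Timd4, Ccr2, Ms4a7 and Vsig4 were not well above background on any of these 4 arrays, while C1qc and Cx3cr1 were dim on both Tie-2-Etv2 arrays but detected on 2 and 1 of the control arrays. Lyz2 and Fcgr1 went the other way, detected on both Tie-2-Etv2 arrays but on 0 and 1 of the control arrays.

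Of 8 megakaryocyte markers 6 rose in CD45- and 5 in CD45+ cells of the embryo. For the yolk sac, 7 of them rose in CD45- cells, while 5 rose and 3 fell in CD45+ cells. Their summed signal in CD45- cells was 356 and 234 on Tie-2-Etv2 arrays, against 11.8 and 7.76 on control arrays, in the embryo, and 1072 and 796 against 6.16 and 8.25 in the yolk sac. In CD45+ cells the sums lay the other way, at 219 and 188 on Tie-2-Etv2 arrays, against 354 and 278 on control arrays, in the embryo, and at 298 and 197 against 650 and 462 in the yolk sac. The brightest probes weigh most in these sums. In embryo CD45+ cells 5 of the 8 markers rose and 0 fell, with a median difference of 3.21, although the sum was lower. Of 9 tested endothelial markers 6 fell in yolk sac CD45- cells and 0 changed in embryo CD45- cells (1 at an unadjusted p under 0.05 by limma), while 5 rose in embryo CD45+ and 7 in yolk sac CD45+ cells. Of 12 myeloid transcription factor genes 2 rose in each embryo population. In the yolk sac 5 rose and 3 fell in CD45- cells, and 3 rose and 5 fell in CD45+ cells. Spi1, which encodes PU.1, was at least 2.49-fold higher in Tie-2-Etv2 embryo CD45- and at least 23.9-fold higher in Tie-2-Etv2 yolk sac CD45- cells than in control cells (limma adjusted p = 0.00236 for the embryo, 2.43e-06 for the yolk sac).

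Of 5 tested mast cell and basophil markers 3 rose in embryo CD45+ and 4 rose and 1 fell in yolk sac CD45+ cells, 1 rose and 2 fell in yolk sac CD45- cells, and 0 changed in embryo CD45- cells (1 at an unadjusted p under 0.05 by limma). Of 8 tested dendritic cell markers 1 rose in embryo CD45+ cells, 3 rose and 1 fell in yolk sac CD45- cells, 2 fell in yolk sac CD45+ cells and 0 changed in embryo CD45- cells (1 at an unadjusted p under 0.05 by limma). Of 9 erythroid markers 1 rose in each embryo population, 2 rose and 1 fell in yolk sac CD45- cells, and 1 rose and 1 fell in yolk sac CD45+ cells.

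**Figure D4:**
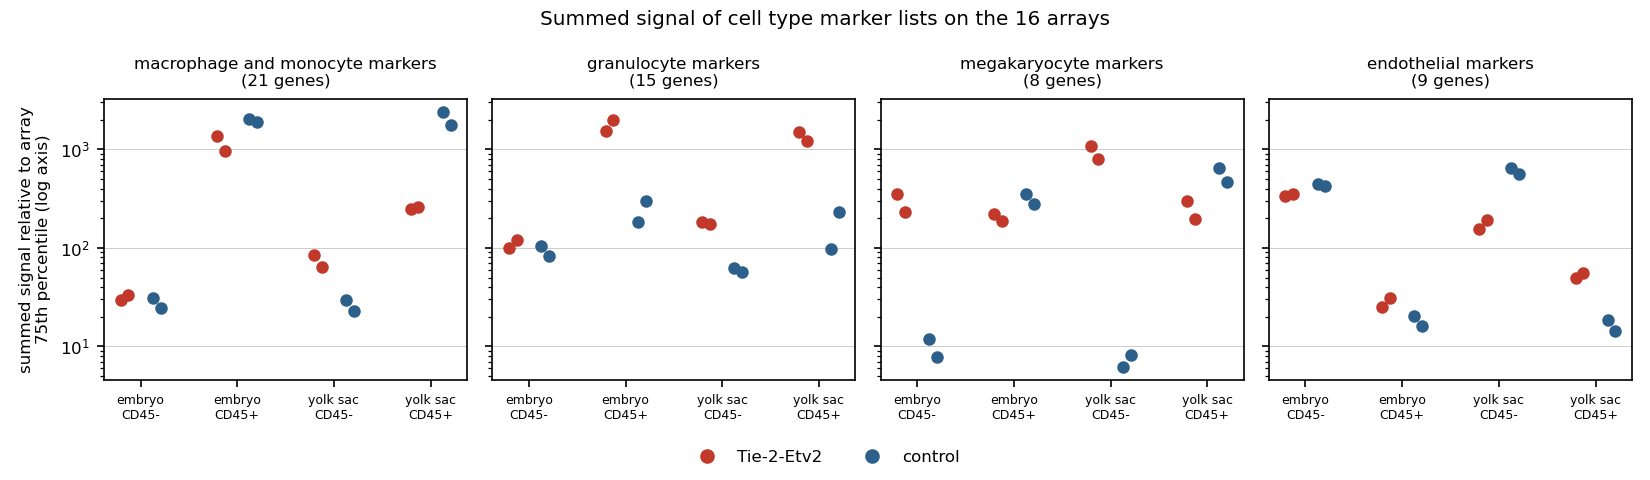
Summed signal of 4 marker lists, in multiples of the 75th percentile of the array (log axis), on the 16 arrays with 1 point per array. The macrophage sum is lower and the granulocyte sum higher on Tie-2-Etv2 than on control yolk sac CD45+ arrays. The megakaryocyte sum is higher on Tie-2-Etv2 than on control CD45- arrays of both tissues. In CD45+ cells of both tissues that sum is lower on Tie-2-Etv2 than on control arrays, although 5 of the 8 markers rose there in each tissue.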

How the data were processed

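Groups came from the sample titles and, for the genotype of the transgenic embryo CD45- samples, from their other labels, with 2 arrays in each of 8 groups. The members and gene lists were chosen with earlier results of these data known. Scanner files as deposited hold intensities per spot (Agilent Feature Extraction 10.7, per the submitters' processing notes), and the processed intensity, per the file headers, is background-subtracted and not normalized between arrays. The deposited value table holds log2 values. Differences between its arrays of a tissue and gate followed those of the scanner values (lowest correlation 0.99998). Any centring per probe cancels in such differences, so how the table was centred cannot be told from them. Direction was settled by that comparison. For scale, the median difference between genotypes over all genes in yolk sac CD45- cells was 0.177 from the table, against 0.176 from the scanner values. Its column medians were, for Tie-2-Etv2 and then control arrays, 0.0281, -0.0323, 0.175 and -0.0945 (embryo CD45-), 0.00548, -0.0324, 0.166 and -0.0837 (embryo CD45+), 0.0156, -0.00454, 0.0851 and -0.183 (yolk sac CD45-) and -0.00892, -0.121, 0.147 and 0.00331 (yolk sac CD45+). The deposited table served as an alternative for the genotype comparisons.

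Outlier and control spots were left out, which removed 87 probes, spots of a probe were averaged, and 34126 probes passed the filter (both arrays of 1 group or more well above background). The brightest probe stood for a gene (24579 genes, 16527 with a RefSeq symbol). Group means over all 16 arrays were fitted with limma 3.58.1 (R 4.3.3; lmFit, eBayes, 8 residual and 2.29 prior degrees of freedom), two-sided, with Benjamini-Hochberg adjustment over all genes and a threshold of 0.05. For a gene dim on both arrays of a group a bound is given, which compares the mean of the brighter group with a dim-group mean in which each array counts at its own signal or at its lowest signal well above background, whichever is higher. That lowest signal was taken over all probes of the array, and some signals not well above background exceeded it. The bound therefore holds for the processed intensities only and is no strict limit. Named genes are the 8 receptors, at most 4 called genes of largest difference per list and comparison, and the 3 genes most correlated with each receptor; exceptions are stated. The fit was tested on simulated data. Figures used Python 3.11.15 and matplotlib 3.10.9. The number of arrays limits the precision.

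Alternatives were normexp background correction (offset 50), quantile normalization, a percentile over probes detected on all arrays, no or a stricter filter, other rules for probes, a trended robust prior, the replicate number as a block, the 4 arrays or 1 slide alone, the deposited table, and each array left out. Protein sequences and the Clec4n promoter were not used here.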

Additional observations from a re-analysis of the deposited data

Results flagged for a closer look

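The effect of Tie-2-Etv2 differed between tissues or gates, by a contrast of the same limma fit, in 6 cases. For Clec4d the effect in CD45- cells was larger in the yolk sac than in the embryo by 3.82 ± 1.06 (log2, SE, adjusted p = 0.0362), with a CD45- effect of at least 285-fold in the yolk sac and at least 49.8-fold in the embryo. Clec4d was not well above background in either control group, with means of -6.71 in the yolk sac and -5.47 in the embryo, so the contrast rests in part on signals below background. For Clec7a the same contrast was 3.22 ± 0.68 (adjusted p = 0.0127). The Clec4d contrast did not pass under 11 of its 17 alternatives, among them leaving out any of its 8 arrays other than Tie-2-Etv2 yolk sac CD45- replicate 2 (adjusted p 0.0215 to 0.131 over all 17). The Clec7a contrast did not pass under 2 of 17, normexp correction (1.04, adjusted p = 0.0692) and without Tie-2-Etv2 yolk sac CD45- replicate 1 (2.91, 0.0564).

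In the yolk sac, the effect in CD45+ cells minus that in CD45- cells was -7.51 ± 1.06 for Clec4d (adjusted p = 0.000879), -3.29 ± 0.58 for Clec4n (0.00306) and -4.76 ± 0.68 for Clec7a (0.000912), and each was called under all 18 of its alternatives. Clec4d rose in both gates and Clec7a rose in CD45- cells, while Clec4n fell in CD45+ cells. In the embryo the same contrast was -5.13 ± 1.03 for Clec4f (adjusted p = 0.0458), which entered the test only through control embryo CD45+ cells and was not well above background in the other 3 groups. It did not pass under 11 of its 17 alternatives, leaving out any of 6 of its 8 arrays among them (adjusted p 0.00361 to 0.399 over all 17).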

How the results depend on the processing

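In embryo CD45- cells 2 receptors were called, and 1 with normexp or the slide alone (1 to 2 with an array left out). In embryo CD45+ cells 1 was called, and 0 with normexp, the strict filter (which left 4 of the 8 genes tested), the 4 arrays alone or the slide alone (0 to 2 with an array left out). In the CD45- difference of effects between tissues 2 were called, 0 with normexp and 1 with quantile normalization, the percentile over detected probes or no filter (0 to 2 with an array left out). In the embryo difference of effects between gates 1 was called, 0 with normexp, no filter, every probe tested or the slide alone, and 2 with the percentile over detected probes or the trended prior (0 to 3 with an array left out). With an array left out, 2 to 3 were called, against 4, between gates of Tie-2-Etv2 embryos, 3 against 4 between gates of control yolk sacs, 0 to 2 against 0 in the CD45+ difference between tissues, and 2 to 3 against 3 in yolk sac CD45+ cells. The cause was not tested. For single receptors, 423 of 472 alternative values of called results stayed called in the same direction, 49 lost the call, and 26 of 668 for uncalled results gained one. Of those 26 gains 9 were for Clec5a, 7 each for Clec4f and Clec4d, and 3 for Clec4e. With the 4 arrays alone or the slide alone, Clec4f and Clec5a were called between gates of control yolk sacs (6 called, against 4), and Clec5a between gates of Tie-2-Etv2 yolk sacs. Clec4f was called in yolk sac CD45+ cells with these 2 settings and with the percentile over detected probes.

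The replicate numbers of the titles were shared between groups without being said to pair samples, and deviations of same-numbered arrays correlated at -0.006 to 0.385 over the 8 genotype and gate comparisons with 2 pairs each. In every embryo group the 9 erythroid markers were lower on replicate 1, with median gaps (replicate 1 minus 2) between -1.28 and -1.05. In the yolk sac groups these medians lay between -0.39 and 0.68. Whether same-numbered samples share an origin was not tested. With the replicate block the embryo difference between gates gained Clec4d (-5.17, adjusted p = 0.0323, in a range of 0.00207 to 0.479 over its alternatives), which made 2 calls, and no other call on a receptor changed. Signal over background limits Clec12a, Clec4a2, Clec4f and Clec5a, Clec4d in control CD45- cells of both tissues, and Clec7a in those of the yolk sac.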
